A study of Mus musculus with 3 samples.

Results

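Isg15 with the enzymes that attach and remove it, and the antiviral PARP genes with Dtx3l, were described in RNA bound to chromatin of mouse macrophages. The 10 genes were taken by symbol from the deposited tables: Isg15, Uba7, Ube2l6, Herc6, Usp18, Parp9, Dtx3l, Parp10, Parp12 and Parp14, of 55536 annotated genes, 22028 of them protein-coding. A gene counted as detected where its counts averaged 10 or more over the libraries, and all 10 were.

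ISG15 is a ubiquitin-like protein whose gene is switched on by type I interferon. It is activated by the E1 enzyme UBA7, passed to the E2 enzyme UBE2L6 and joined to target proteins by an E3 ligase, which in the mouse is mainly HERC6, while USP18 takes it off again and also restrains the interferon receptor subunit IFNAR2. PARP10, PARP12 and PARP14 transfer single ADP-ribose units to proteins, PARP9 forms a complex with the ubiquitin ligase DTX3L, and the genes of all of them are interferon-responsive in macrophages.

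The series held 3 libraries of 1 group, numbered as biological replicates 1, 2 and 3 of bone-marrow-derived macrophages from C57BL/6J mice, with 1 donor entry shared by all 3 and with sex and age not collected. The cells had received Lipid A, the lipopolysaccharide anchor sensed through Toll-like receptor 4, at 100 ng/ml for 12 h, then a washout of 12 h and a repeat of 100 ng/ml for 40 min. RNA of the chromatin fraction, where nascent transcripts are plentiful, was sequenced after removal of ribosomal RNA, with an input of 1 µg, 250 ng and 500 ng in replicates 1, 2 and 3. Untreated cells, cells given Lipid A once and other fractions were not analysed here, so the text describes levels and gives no induction.

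Depth was 13802716 to 17187524 expected counts in annotated genes, and the 10 genes took 0.721%, 0.551% and 0.621% of them. Levels are in TPM, a unit that corrects for depth and transcript length. They are given as mean ± SD over the 3 libraries (n = 3), and coordinates refer to mm10 (GENCODE M21). Protein-coding genes held 27.4%, 30.7% and 31.9% of TPM in replicates 1, 2 and 3. Which library is highest for a gene can therefore change with the scaling. A second set of tables, made by the authors directly from the sequence reads, is quoted for the genes whose mean it moved by over 1.5 times, for the order of the genes and for the main transcripts. All 7 macrophage markers were in the top 10% of protein-coding genes, with a summed level of 980, 1095 and 952 TPM in the order of the replicates. No marker of neutrophils, T cells or B cells was detected in the gene tables. From the reads the highest of them were the T cell markers Cd3d, with 15.6 TPM against 0, and Cd8a, with 2.06 against 0.0367. Of 6 markers of plasmacytoid dendritic cells 3 were detected, and 2 were in the top 10%. These were Tcf4 with 100 TPM and the widely interferon-induced Bst2 with 53.3 TPM (119 from the reads). Ccr9 had 2.64 TPM (4.56 from the reads), and Siglech, Klk1 and Cox6a2 had means of 1.00, 0 and 1.00 counts. Of 5 fibroblast markers 3 were detected, Col1a1, Col1a2 and Col3a1, at means of no more than 0.360 TPM in the gene tables. All 3 had 0 counts in replicate 1 and 20.0 to 32.0 counts in replicates 2 and 3. From the reads Col1a1 had 1.41 TPM, Col1a2 0.652 and Pdgfra 1.11, the last against 0 in the gene tables.

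The Isg15 promoter is shown because it was the 1 promoter of these genes that held the core of the interferon-stimulated response element, a site through which type I interferon acts on its target genes. Its 250 bases before the start (chr4:156200819-156201068, minus strand, RefSeq, GRCm38.p6) read as follows, with capitals marking the run of matches to the core, which is GAAA and GAAA with any 2 bases between them.
Isg15: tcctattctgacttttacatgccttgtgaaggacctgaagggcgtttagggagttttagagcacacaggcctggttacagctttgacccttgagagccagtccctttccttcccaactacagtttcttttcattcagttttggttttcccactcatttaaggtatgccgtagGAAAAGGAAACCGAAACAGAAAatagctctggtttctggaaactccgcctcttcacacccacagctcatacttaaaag
The run held 3 overlapping matches in 22 bases, from 78 to 57 bases before the start. RefSeq promoters from 250 bases before to 50 after the start were at hand for 6 of the 10 genes, namely Isg15, Uba7, Ube2l6, Herc6, Dtx3l and Parp12. With both strands searched, 1 of the 6 held the core, as did 3.44% of all 32851 promoters of this length. The longer form, the core followed by CT, was in 0 of the 6 and in 0.271% of all promoters. A match is a description of these letters, and its absence says only that they are not in this window.

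Levels of the 10 genes were high. Of the 10, 9 were among the top 10% of protein-coding genes by mean log2(TPM + 1), where the background share is 10% by construction. Their median percentile was 97.9, and their median level was 125 TPM against 7.32 TPM over the 10952 detected protein-coding genes. The highest, Parp14, had 47.0 times the TPM of the lowest, Ube2l6. From the reads the factor was 21.4, with Parp14 again highest and Dtx3l, at 37.5 TPM, lowest. By CPM, which is not corrected for length, 7 of the 10 were among the top 10%, and 8 were when the top 10% was taken among detected genes only.

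**Figure D1:**
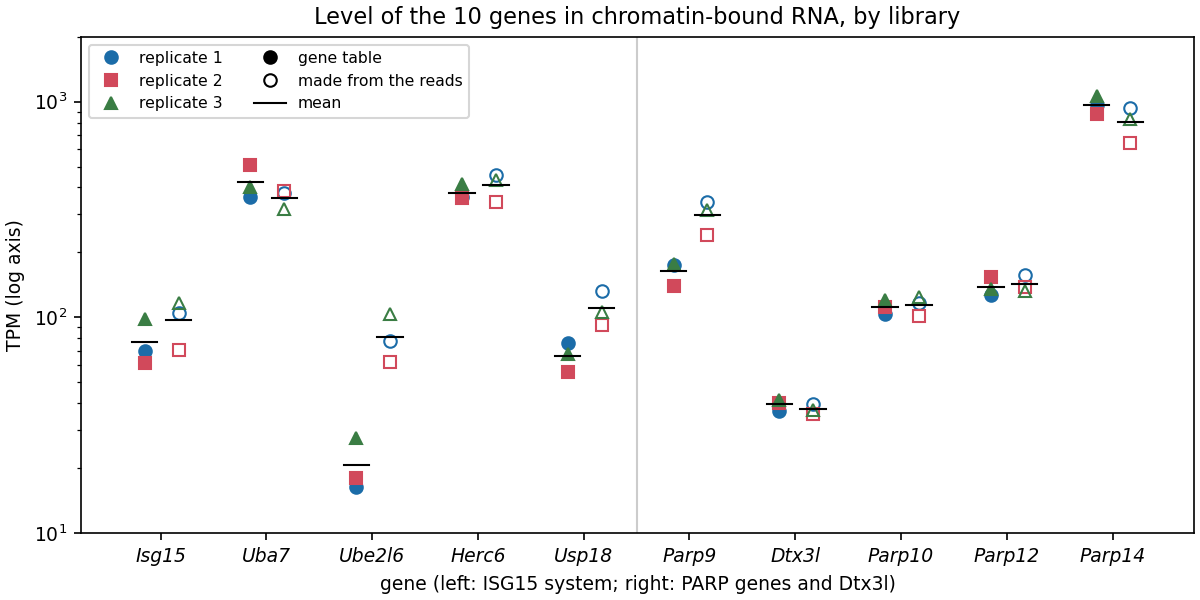
Level of each gene (TPM, log axis) in each of the 3 libraries, with filled symbols for the gene tables, open symbols for the tables made from the reads and a line at each mean. Parp14 had 878 to 1061 TPM in the gene tables, above every other gene in all 3 libraries, and Ube2l6 moved most between the tables, from a mean of 20.6 to 80.9 TPM.

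Isg15 (ENSMUSG00000035692.6, chromosome 4, 156199424 to 156200818, minus strand), the modifier itself, had 69.7, 61.1 and 98.4 TPM in replicates 1, 2 and 3, or 76.4 ± 19.6. Replicate 3 stood above the other libraries. The gene is short, 1395 bases with 1 annotated transcript, and these levels rested on a mean of 543 counts.

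Uba7 (ENSMUSG00000032596.14, chromosome 9, 107975505 to 107984060, plus strand), the activating enzyme, had 361, 508 and 401 TPM, or 424 ± 76.1. In TPM replicate 2 was highest, while after the TMM scaling explained below replicate 1 was. Ube2l6 (ENSMUSG00000027078.14, chromosome 2, 84798828 to 84810335, plus strand), the conjugating enzyme, had 16.3, 17.9 and 27.6 TPM, or 20.6 ± 6.11, and was the 1 gene outside the top 10%, at the 86.6th percentile. The tables made from the reads put it at 77.3, 62.1 and 103 TPM, 3.93 times as high in the mean and at the 95.1st percentile, so its place depends on the quantification. Within the gene tables the Uba7 level was 22.2, 28.5 and 14.6 times the Ube2l6 level, and from the reads 4.87, 6.17 and 3.07 times. By gene totals the activating enzyme was above the conjugating enzyme in every library of both tables. Most of the Uba7 total lay outside its coding transcript, and on coding transcripts alone the levels were 18.9, 16.9 and 17.9 TPM for Uba7 and 13.4, 14.3 and 22.2 TPM for Ube2l6, so the order turned in replicate 3. From the reads the coding means were 4.40 TPM for Uba7 and 55.8 TPM for Ube2l6, the reverse order.

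Herc6 (ENSMUSG00000029798.11, chromosome 6, 57581000 to 57664632, plus strand), the ligase, had 362, 358 and 414 TPM, or 378 ± 31.2. In TPM the 3 libraries lay close together, while after the TMM scaling explained below they had 10.24, 9.78 and 10.18 log2 CPM. By gene totals the ligase was 5.19, 5.85 and 4.20 times the level of Isg15. Isg15 has a coding transcript only. On its coding transcript alone Herc6 had 113, 112 and 119 TPM, closer to Isg15 but above it in each library. From the reads the coding means were 99.9 TPM for Herc6 and 97.1 TPM for Isg15. Usp18 (ENSMUSG00000030107.10, chromosome 6, 121245906 to 121270917, plus strand), the enzyme that removes ISG15, had 75.7, 55.7 and 67.4 TPM, or a mean of 66.3 with an SD of 15.2% of it, and replicate 2 was lowest. From the reads it had 110 ± 20.5 TPM, 1.66 times as much. The ratio of Isg15 to Usp18 was 0.920, 1.10 and 1.46, so by gene totals neither the modifier nor its protease was above the other in all 3 libraries. On coding transcripts alone Usp18 had 42.4, 32.2 and 42.2 TPM, below Isg15 in each library. From the reads the coding means were 66.0 TPM for Usp18 and 97.1 TPM for Isg15.

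Parp9 (ENSMUSG00000022906.15, chromosome 16, 35938470 to 35972605, plus strand), which binds ADP-ribose through its macrodomains, had 174, 140 and 177 TPM, or 163 ± 20.5. Its partner Dtx3l (ENSMUSG00000049502.17, chromosome 16, 35926511 to 35939151, minus strand) had 36.9, 40.2 and 41.4 TPM, or 39.5 ± 2.30. By gene totals Parp9 was therefore 4.70, 3.48 and 4.28 times Dtx3l. From the reads the Parp9 level was 298 ± 51.5 TPM, 1.83 times that of the gene tables, and the ratio 7.93 ± 1.03. Dtx3l has coding transcripts only. On coding transcripts alone Parp9 had 94.7, 70.5 and 90.3 TPM, closer to Dtx3l but above it in each library. From the reads the coding means were 77.9 TPM for Parp9 and 37.5 TPM for Dtx3l.

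Parp10 (ENSMUSG00000063268.12, chromosome 15, 76231174 to 76243441, minus strand) had 104, 111 and 120 TPM, or 112 ± 8.30. Parp12 (ENSMUSG00000038507.6, chromosome 6, 39086410 to 39118349, minus strand), a zinc-finger member of the family, had 127, 153 and 135 TPM, or 138 ± 13.1. In TPM replicate 3 was highest for Parp10 and replicate 2 for Parp12, while after TMM scaling replicate 1 was highest for both. Parp12 was above Parp10 in each library.

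Parp14 (ENSMUSG00000034422.14, chromosome 16, 35832874 to 35871544, minus strand), a large macrodomain protein known for its work with STAT6, had 964, 878 and 1061 TPM, or 967 ± 91.7. It was rank 17 of all protein-coding genes. With a mean of 55260 counts it alone held 57.2%, 53.2% and 57.2% of the counts of the 10 genes. Its level was 5.94 ± 0.366 times that of Parp9, 8.66 ± 0.716 times that of Parp10 and 7.07 ± 1.16 times that of Parp12. From the reads, Parp14 was 2.69 ± 0.0489 times Parp9.

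In the order of mean TPM, Parp14 was followed by Uba7, Herc6, Parp9, Parp12, Parp10, Isg15, Usp18, Dtx3l and Ube2l6. Of the 9 neighbouring pairs, 6 had ranges that did not overlap over the libraries. The values of Uba7 and Herc6, of Parp9 and Parp12 and of Isg15 and Usp18 overlapped, and none of these pairs kept 1 order in all 3 libraries. The smallest two-sided p that an exact paired permutation test can give with 3 libraries is 0.25, so no pair was tested. Dtx3l was above Ube2l6 in each library of the gene tables and in 0 of 3 from the reads, where the ratio of their means was 0.463. Also from the reads, Herc6 (410 TPM) was above Uba7 (359) and Usp18 (110) above Isg15 (97.1) in the mean, and Parp9 was above Parp12 in 3 of 3 libraries, with a ratio of 2.10. Of the 9 neighbouring pairs 6 thus kept their order in the mean.

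By likeness of profile, measured as the Euclidean distance of log2(TPM + 1) over the 3 libraries, the protein-coding genes nearest to Isg15 were Ddit3 (distance 0.0702), Eid3 (0.147) and Dusp11 (0.165). Those nearest to Parp14 were Rnf213 (0.226), Sirpa (0.243) and H2-D1 (0.280). Over 3 libraries this measure mostly reflects a like level.

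Parp14, Dtx3l and Parp9 lie within 139732 bases of chromosome 16. The gap between Parp14 and Dtx3l is 54966 bases. Dtx3l and Parp9 face away from each other and their first exons overlap head to head, over 682 bases of the genes, of which 458 are exonic in both. Of the 31-base words in the Dtx3l transcripts, 7.52% also occur in those of Parp9 on the opposite strand. Whether the counting used strand is not given in the sources used here, so reads from this stretch cannot be told apart between the genes. Within the Parp14 gene and on its strand lies Gm49730, an unclassified single stretch with 124 ± 20.2 TPM.

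**Figure D2:**
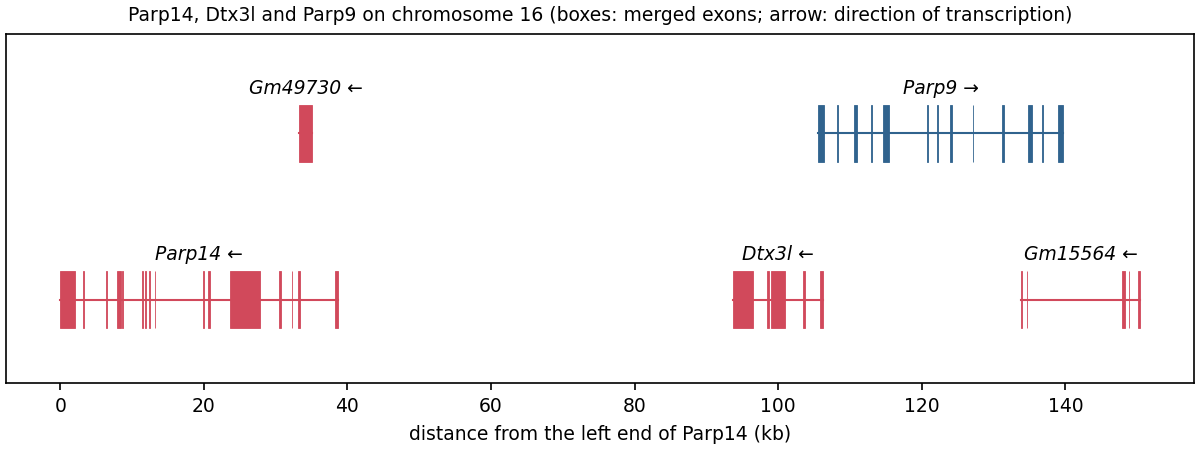
Map of the chromosome 16 genes, in kb from the left end of Parp14, with boxes for exons merged over transcripts, red for the minus strand and blue for the plus strand. Dtx3l and Parp9 overlap at their starts by 682 bases, and Gm49730 lies inside Parp14.

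Other genes also overlap members or share sequence with them. Herc6 shares 12.7% of its words with Gm45193, a processed transcript on the same strand, which had 6.01 TPM in the gene tables and 49.1 from the reads. Antisense to Usp18 lies Gm44148, with 0.977 and 18.0 TPM. Antisense to Parp9 lies Gm15564, listed at 0 in the gene tables and at 29.0 TPM from the reads. Its exons overlap those of Parp9 over 0 bases. Isg15 shares 10.2% of its words with AC151275.1 on the same strand, which had 0.917 TPM, and Ube2l6 4.84% with 2700054A10Rik, which had 0.0100 TPM. Parp10 overlaps the end of Plec on the same strand (4.06% of its words), and Uba7 overlaps Gm20661 (2.89%). How reads in exonic stretches held by 2 genes were divided can move the values of the members that have such stretches. In the gene tables the posterior SD was 0 counts for Isg15 and Ube2l6, and at most 0.130 for Usp18, 0.660 for Uba7 and 0.900 for Parp10. For Herc6 it was 40.4, 32.7 and 19.4 counts, beside a mean of 16914. Beyond these values, and for the tables made from the reads, the size of that part was not tested.

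Much of the signal of these genes lay in transcripts annotated as retaining an intron. The 10 genes have 50 annotated transcripts, 15 protein-coding and 24 of the retained-intron class, and 8 genes have at least 1 transcript of another class than protein-coding. Isg15 has 1 transcript and Dtx3l 2, all coding, so unspliced RNA of those genes had no transcript of its own to be assigned to. Over the other 8, the median share of TPM outside coding transcripts was 55.3%, against 47.4% over the 8892 protein-coding genes that have both kinds. The median share of retained-intron transcripts was 47.8% against 31.7%. All 8 have a retained-intron transcript, while the background genes needed only a non-coding transcript of any class. The 2 retained-intron shares are therefore not on an equal footing.

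**Figure D3:**
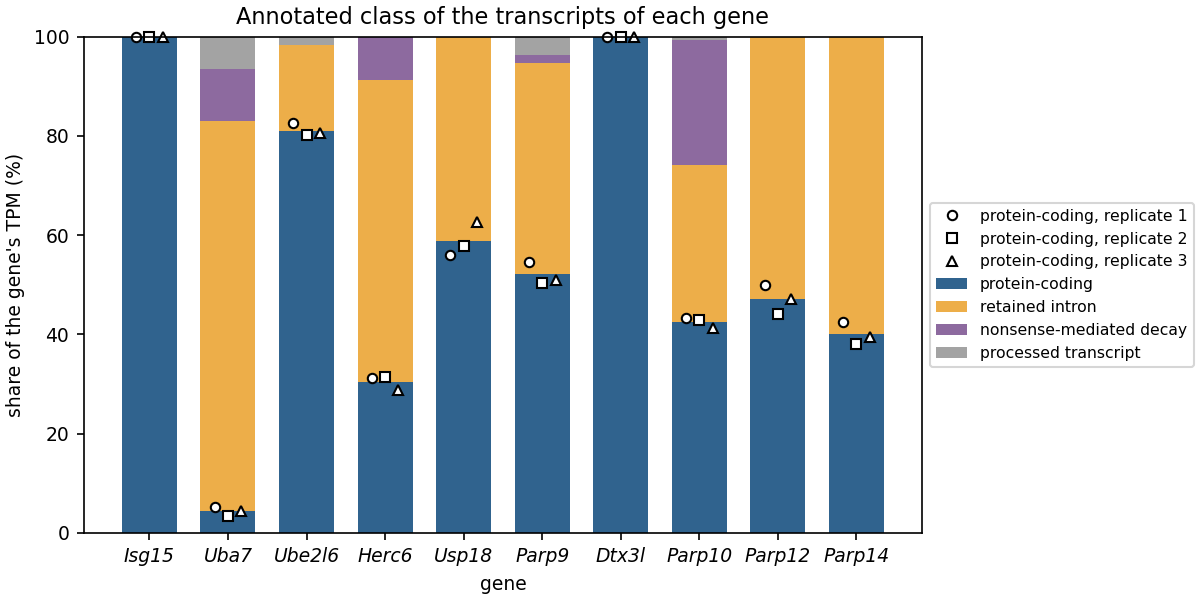
Share of each gene's TPM (percent, mean of 3 libraries) by annotated transcript class, with white symbols for the coding share in each library. The coding share ranged from 4.33% in Uba7 to 81.1% in Ube2l6 among the 8 genes with other classes, and was 100% in Isg15 and Dtx3l, which have none.

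Uba7 stood at the far end. Its 1 coding transcript, Uba7-201, held 5.23%, 3.32% and 4.46% of the gene's TPM, so that 95.7 ± 0.961% lay in its 14 other transcripts, and 78.8 ± 2.57% in those of the retained-intron class. The coding transcript had 787, 707 and 703 counts, with posterior SDs of 136, 167 and 143 counts given by the authors for the division among transcripts. Its level was 17.9 ± 1.01 TPM in the transcript tables and 4.40 TPM from the reads, so it was low in both. The leading transcript, Uba7-210, held 15.7 ± 1.32%, close to Uba7-212 with 15.1 ± 1.93%, and without replicate 1 Uba7-212 led.

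In Herc6, 69.5 ± 1.53% of TPM was outside the coding transcript. The leading transcript was Herc6-202, a single exon of 4378 bases of which 4081 lie in introns of the coding Herc6-201, with 147, 142 and 184 TPM against 113, 112 and 119 TPM of Herc6-201. In every library of the transcript tables the intron-holding transcript was above the coding one, while from the reads Herc6-202 (92.2 TPM) was below Herc6-201 (95.1 TPM) in replicate 2. From the reads Herc6-203, a short transcript annotated for nonsense-mediated decay, was level with Herc6-202 at 114 TPM each, against 33.4 ± 7.48 TPM for Herc6-203 in the transcript tables.

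Among the PARP genes the share outside coding transcripts was 59.9 ± 2.30% in Parp14, 57.5 ± 1.12% in Parp10, 52.9 ± 2.94% in Parp12 and 48.0 ± 2.25% in Parp9. In Parp14 the coding transcript Parp14-201 still led, with 410, 334 and 419 TPM, followed by the retained-intron transcripts Parp14-203 with 294 ± 41.8 and Parp14-202 with 286 ± 17.0. In Parp12 the retained-intron transcript Parp12-202 had 63.7, 85.4 and 71.0 TPM and the coding Parp12-201 63.6, 67.3 and 63.5 TPM. The retained form was well above the coding one in replicates 2 and 3 and level with it in replicate 1.

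Parp10 was split among several transcripts. The nonsense-mediated-decay transcript Parp10-205 held 25.1 ± 4.25%, and the coding Parp10-201 and Parp10-202 held 22.1 ± 1.33% and 20.4 ± 1.48%. The retained-intron Parp10-203 held 20.5 ± 0.490%. From the reads another retained-intron transcript, Parp10-206, led instead, with 34.0 TPM against 12.4, and Parp10-205 had 10.5 TPM against 28.2. In Parp9 the coding Parp9-201 led with 45.2 ± 8.98 TPM, and without replicate 1 the retained-intron Parp9-205 did. From the reads the leading one was Parp9-207, a transcript of 468 bases annotated for nonsense-mediated decay, with 92.7 TPM against 0.567 in the transcript tables, and the Parp9 share outside coding transcripts was 74.1 ± 2.17%.

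Usp18 and Ube2l6 were mainly coding. Outside coding transcripts lay 41.2 ± 3.42% of Usp18 and 18.9 ± 1.32% of Ube2l6. The difference of Ube2l6 between the tables lay largely in Ube2l6-202, a coding transcript of 343 bases, listed at 0 in all 3 libraries of the transcript tables and at 33.1, 30.1 and 54.0 TPM from the reads. Its longer coding transcript Ube2l6-201 had 16.7 ± 4.82 TPM and also 16.7 TPM from the reads.

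**Figure D4:**
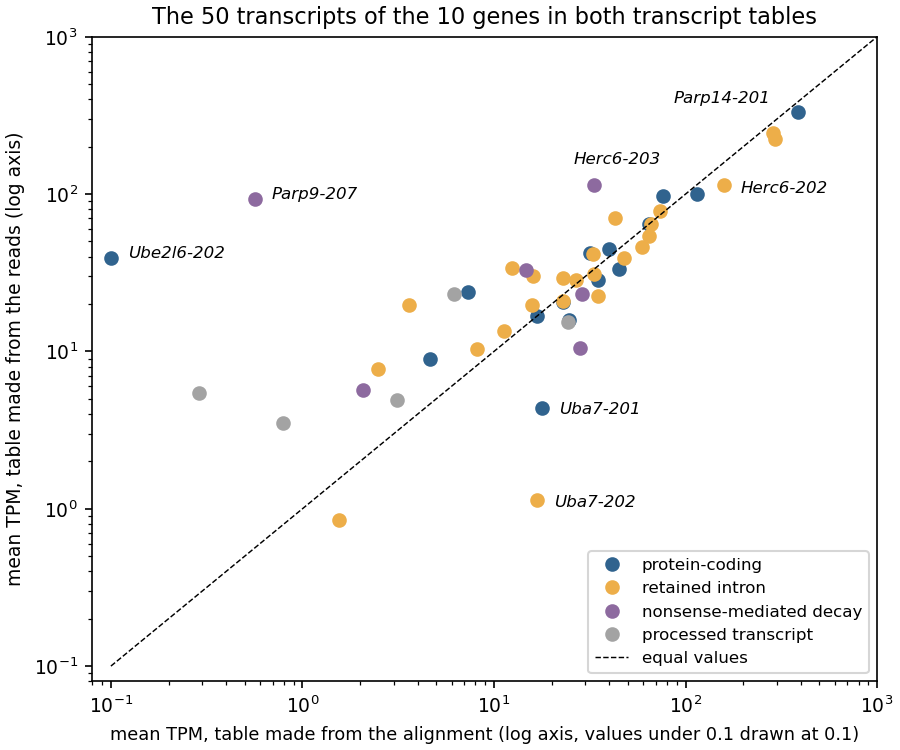
Mean TPM of the 50 transcripts in the transcript table made from the alignment (horizontal log axis) and in the table made from the reads (vertical log axis), coloured by class, with a dashed line at equal values. Parp9-207 (0.567 and 92.7 TPM) and Ube2l6-202 (listed at 0 and drawn at the left edge, 39.1 TPM from the reads) lie far above the line, and Uba7-202 (16.8 and 1.13 TPM) far below it.

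A non-coding transcript led in 4 of the 8 genes, Uba7, Herc6, Parp10 and Parp12, beside 38.0% of the 8892 background genes. Over 50% of TPM was outside coding transcripts in 5 of the 8, beside 46.2% of the background. The counts of 4 and 5 among 8 are therefore near the background and are no result about these genes. Shares of TPM weigh short transcripts up, and by counts the share outside coding transcripts was 93.1% in Uba7, 57.3% in Herc6, 40.2% in Parp10, 30.3% in Parp14, 25.7% in Parp9, 22.4% in Parp12, 17.3% in Usp18 and 5.69% in Ube2l6.

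Counting coding transcripts alone, an alternative chosen after the data were seen, changed the order. Parp14 (388 TPM) and Herc6 (115) led, Isg15 took the fourth place with 76.4, and Uba7 went from the second to the ninth with 17.9, next to Ube2l6 with 16.7, whose values overlapped with it.

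Exon and intron junctions of 3 genes are shown because these stretches are in the retained-intron transcripts and not in the spliced coding ones. Lower case marks the last 15 bases of the exon and capitals the first 45 bases of the intron, read from the GENCODE M21 transcripts, 5′ to 3′ on the gene's strand. They are intron 8 of 23 of Uba7-201 in Uba7-210 (chr9:107977461-107977520, plus strand), intron 7 of 22 of Herc6-201 in Herc6-202 (chr6:57607164-57607223, plus strand) and intron 5 of 16 of Parp14-201 in Parp14-203 (chr16:35860385-35860444, minus strand).
Uba7: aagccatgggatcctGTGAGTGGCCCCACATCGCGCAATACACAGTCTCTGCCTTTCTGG
Herc6: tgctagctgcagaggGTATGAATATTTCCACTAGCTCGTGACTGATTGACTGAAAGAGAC
Parp14: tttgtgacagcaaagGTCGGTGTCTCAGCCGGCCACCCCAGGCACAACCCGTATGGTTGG
Each intron begins with GT, and each is held whole by its transcript, over 376 bases in Uba7, 455 in Herc6 and 1665 in Parp14. Reads over the junctions themselves were not analysed here.

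Spread over the 3 libraries was measured as the SD of log2 CPM (counts scaled to the library total) after TMM scaling, which evens out library size and composition. It ran from 0.10 in Uba7 to 0.48 in Isg15, with a median of 0.28 against 0.26 over the 14330 detected genes of any class. Of the 10 genes, 5 lay below the median of all genes. Uba7, Parp12, Dtx3l and Parp10 spread least, with 0.10, 0.15, 0.16 and 0.16, and Parp9, Usp18 and Isg15 most, with 0.40, 0.41 and 0.48. This ranking depends on replicate 2 and on the scaling. Without replicate 2 the SD of Isg15 was 0.08 and Ube2l6 spread most, with 0.29. With total count scaling Uba7 had 0.17, above Parp12, Dtx3l and Parp10 with 0.16, 0.11 and 0.11.

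All 10 varied beyond counting noise in a chi-square test of counts with offsets from edgeR, Benjamini-Hochberg adjusted over all 14330 genes, beside 54.9% of those genes. The largest adjusted p of the 10 by this chi-square test was 8.00e-11, for Ube2l6. The test sees smaller differences at higher counts, and these genes had means of 320 to 55260 counts. Without replicate 1 Parp12 was no longer called (adjusted p = 0.589), and without replicate 2 neither Isg15 (0.322) nor Dtx3l (0.0918) was, by the same test with edgeR offsets. Of all genes tested, 43.5% were called without replicate 1 and 27.9% without replicate 2. The biological coefficient of variation estimated by edgeR was 17.7% to 22.7%, against a median of 22.1% over all genes. These estimates are drawn toward those of other genes, with 22.3% common to all. Their narrow range therefore does not show that the 10 genes vary alike.

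**Figure D5:**
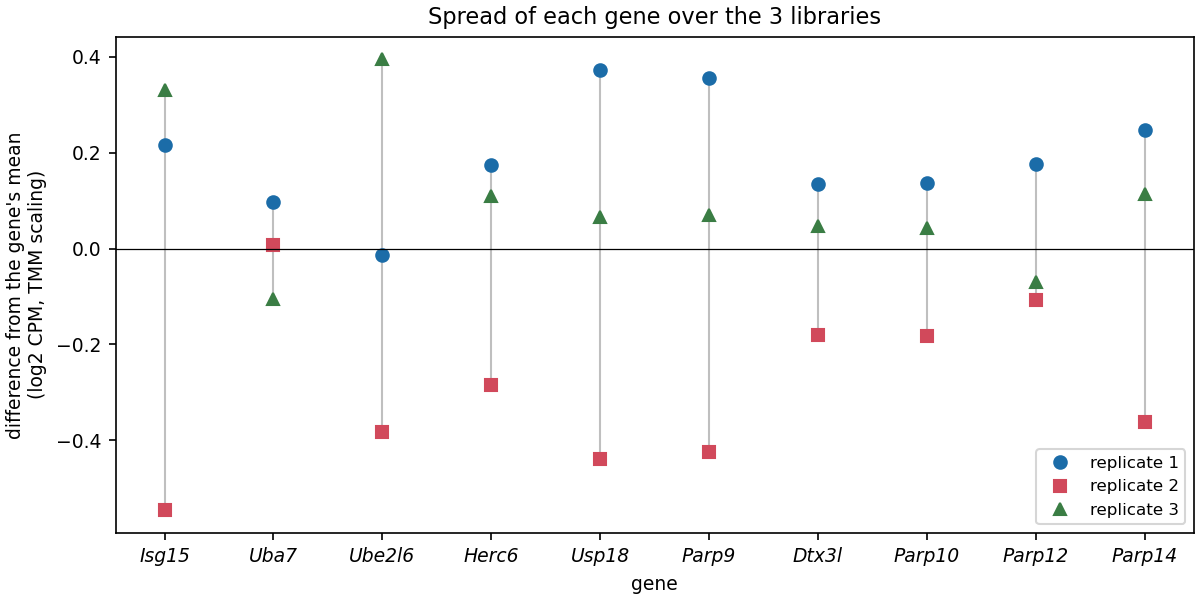
Difference of each library from the gene's mean (log2 CPM after TMM scaling), by gene, with 1 symbol for each replicate. Replicate 2 is lowest for 9 of the 10 genes on this scale, from -0.11 in Parp12 to -0.55 in Isg15.

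The genes tended to be low in the same library. Replicate 2 was lowest for 9 of the 10 on the TMM scale, beside 36.5% of all 14330 genes, and replicate 1 was highest for 8, beside 29.1%. The exception was Uba7, lowest in replicate 3. The count of genes lowest in replicate 2 was 9 with DESeq2 size factors (37.7% of all genes), 8 with total count scaling (24.2%) and 8 from the reads (32.2%). It was 7 with TPM rescaled over protein-coding genes (19.0% of all genes) and 5 with TPM as deposited (14.7%). For replicate 2 as the lowest, the count among the 10 and the share over all genes both move with the scaling. The count stayed above the share under each of them. Replicate 1 was highest for 8 with DESeq2 size factors (30.1% of all genes) and 7 with total count scaling (27.3%). From the reads it was highest for 9 (29.1%). It was highest for 6 with rescaled TPM and for 1 with TPM as deposited, where the share over all genes was not computed. The deviations from the mean in replicate 2 were -0.55 for Isg15, -0.44 for Usp18, -0.43 for Parp9 and -0.36 for Parp14. Without replicate 2 the median spread of the 10 was 0.12, against 0.17 over all genes tested. Replicate 2 also had the smallest RNA input, 250 ng, and the largest share of counts in Gm26917 and Gm42418, 21.4% against 14.7% and 16.5%, whose part in this was not tested. In such bulk samples fewer expressing cells and less RNA per cell cannot be told apart.

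Genes of related function were taken from lists. Of 12 other PARP family genes 11 were detected and 8 were in the top 10%, with a median of 34.7 TPM. They were led by Zc3hav1, the zinc-finger antiviral protein, with 165 ± 37.6 TPM, Parp11 with 87.0 ± 5.56 (139 from the reads) and Parp8 with 77.0 ± 6.61, while Parp16 had a mean of 9.00 counts. Each of the 12 was below Parp14, and the ranges of Zc3hav1 and Parp9 overlapped, while from the reads their means were 162 and 298 TPM.

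Of 6 genes whose products remove ADP-ribose 4 were detected. Parg, which cleaves ADP-ribose chains, had 38.5 ± 1.42 TPM, Adprhl2 4.92 ± 3.50 and Adprh 4.42 ± 1.23 (11.6 from the reads), and Macrod1 and Macrod2 had means of 8.67 and 1.67 counts. Of the 4 other Deltex ligases 3 were detected, Dtx4 with 21.3 ± 4.75 TPM, Dtx3 with 14.0 ± 1.83 and Dtx2 with 9.30 ± 6.07 (14.4 from the reads), and Dtx1 had a mean of 1.33 counts. Dtx3l was above each of them in every library.

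All 9 ubiquitin counterparts and other ligases were detected, 5 of them in the top 10%. Herc1 had 125 ± 9.91 TPM, the ligase Trim25 119 ± 10.7 and Herc4 92.4 ± 0.947 (182 from the reads). All 10 interferon signalling genes were detected and 9 were in the top 10%, among them the transcription factor genes Stat2 with 512 ± 45.9 TPM and Irf7 with 400 ± 21.1. In the gene tables the ranges of both overlapped that of Uba7. Of the 10, Ifnb1, the gene of interferon beta, had 1.70 ± 0.494 TPM and a mean of 12.0 counts.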

How the data were processed

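The authors deposited, per library, gene and transcript tables of expected counts and TPM derived from reads aligned to the mm10 transcriptome (GENCODE M21), and a transcript table of estimated counts and TPM made directly from the reads. Per the file headers, expected counts need not be whole, and the first kind of table also gives a posterior SD of each count. The strand setting and program names were not given in the sources used here. Entries that name no gene (1.13%, 0.324% and 0.279% of counts) stayed out of library sizes.

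The members and gene lists were chosen with earlier results of these data known. Named were all members, the 3 highest genes of each list with up to 3 under 10 counts, overlapping or neighbouring genes, and the 3 genes nearest in profile to Isg15 and Parp14. Percentiles are of mean log2(TPM + 1) among protein-coding genes. Counts were rounded for the chi-square test against Poisson sampling, fitted with an intercept only on every gene averaging 10 or more counts, with TMM factors from edgeR 4.0.16 in R 4.3.3. It was tested on simulated data. Log2 CPM used a prior count of 0.5. Alternatives were a pseudocount of 0.1, CPM, other backgrounds, DESeq2 1.42.0 size factors, total count scaling, no filter, the read-based tables and leaving out 1 replicate at a time. With 1 group no contrast was fitted. The p-values measure the spread between these 3 samples, which may be technical, and as the labels name no molecular identifiers, PCR copies may count as separate reads in the noise model. One gene that the naming rule selects is not reported here.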

Additional observations from a re-analysis of the deposited data

How the results depend on the processing

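The median percentile of the 10 genes was 97.1 from the reads, 97.3 by CPM, 95.9 among genes with at least 10 counts and 97.9 to 98.0 when each replicate was left out, against 97.9. The median spread was 0.119 to 0.299 when a replicate was left out, lowest without replicate 2. The leading transcript was the same in 6 of the 10 genes from the reads, and the median share outside coding transcripts over the 10 was then 56.7% against 50.4%. The longer promoter motif was in 0 promoters against 1 for the core. On deposited TPM 5 genes were lowest in replicate 2, beside 14.7% of all genes. Under the other 43 alternatives the main results stayed within 1.5 times for counts and the median spread, or within the replicate SD for other values, which does not mean that counts were equal. The genes in the top 10% were 7 by CPM and 8 among detected genes. The neighbouring pairs in order were 6 of 9 from the reads, by CPM and on coding transcripts. The leading transcript was the same in 8 without replicate 1. Beyond counting noise, 9 genes varied without replicate 1 (43.5% of all genes tested) and 8 without replicate 2 (27.9%). Of 232 alternatives for single genes 182 stayed the same, 47 moved and 3 lost a call. The causes were not tested. No paired analysis was possible because there is 1 group. Depth limits Ube2l6 and Isg15 most, with 320 and 543 counts in the mean, and division among overlapping transcripts limits Uba7, Parp10, Parp9 and Herc6.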
